A study of Homo sapiens with 4 samples.

Results

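Transcript levels of the deubiquitinase BAP1 and of 9 proteins that bind it were followed in HAP1 cells with and without BAP1. The 10 genes are BAP1, its ASXL partners (ASXL1, ASXL2 and ASXL3), the MBD proteins MBD5 and MBD6, the FOXK factors FOXK1 and FOXK2, HCFC1 and OGT. They were taken by name, as BAP1 and its known partners, and are 10 of the 57820 genes in the count tables. All 10 passed the filter on low counts and are among the 15136 genes tested. HAP1 is a human, nearly haploid line of adherent cells derived from a leukaemia line. The dKO group (2 libraries) came from untreated HAP1 cells with RING1A and RING1B knocked out. The tKO group (2 libraries) came from untreated cells with RING1A, RING1B and BAP1 knocked out, so both groups lack the RING1 enzymes. Per the study's methods, the BAP1 and RING1A alleles carry a STOP cassette that ends transcription and translation, and were selected as clones, whereas the RING1B knockout was a purchased line. Each group may therefore represent few clones, and p-values measure the spread between 2 libraries of a genotype. Comparing tKO with dKO asks what loss of BAP1 does to these transcripts when the histone mark that BAP1 removes is no longer written.

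BAP1 is a nuclear ubiquitin hydrolase that removes ubiquitin from lysine 119 of histone H2A, and it acts with an ASXL protein that activates it. The complex opposes PRC1, whose RING1A or RING1B subunit writes the mark, and is named PR-DUB for Polycomb repressive deubiquitinase. FOXK1 and FOXK2 are forkhead DNA-binding proteins that bring BAP1 to chromatin, HCFC1 is a transcriptional co-regulator that BAP1 binds directly, and OGT is the enzyme that adds N-acetylglucosamine to nuclear proteins and cleaves HCFC1. MBD5 and MBD6 carry a methyl-CpG-binding-like domain and associate with the ASXL side of the complex. BAP1 and ASXL1 are tumour suppressors, and heterozygous loss of ASXL3 or MBD5 causes neurodevelopmental disease.

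Libraries held between 16054590 and 18455410 counts in genes, more in dKO than in tKO. Levels are given as CPM (counts scaled to a common library size) on sizes normalised by the trimmed mean of M-values (TMM), and 3 counts, taken as the smallest level that a library can show, correspond to between 0.163 and 0.187 CPM. Of 11 marker genes for the blood lineage and for adherent cells, the blood markers SPI1, GATA1 and HBG1 and the epithelial marker EPCAM had 0 counts in every library, PTPRC had at most 1 and CD34 at most 3, whereas KRT18 was transcribed at 18.5 to 22.8 CPM and KRT8 at 0.495 to 1.16 CPM. Blood markers were thus absent or near 0. The tKO libraries stood apart from each other in other markers. VIM had 518 and 475 CPM in dKO against 266 and 487 in tKO. ABL1, which the translocation of the parental leukaemia joins to BCR, had 40.7 and 35.5 CPM in dKO against 22.2 and 63.0 in tKO. BCR had 26.5 and 25.4 CPM in dKO against 20.6 and 34.0 in tKO. Their part in the results below was not tested.

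BAP1 was the member that changed. The gene (ENSG00000163930.5) lies on the minus strand of chromosome 3, from 52435024 to 52444024 on GRCh37, the build of all gene positions given here. The dKO libraries held 2046 and 2010 of its counts, and tKO 1 and tKO 2 held 158 and 107. On the CPM scale its level was 111 ± 0.553 (SD, n = 2) in dKO and 8.18 ± 2.20 (SD, n = 2) in tKO. Both tKO libraries lay far below both dKO libraries, and the dKO libraries were nearly equal. The fitted log2 fold change of -3.77 (standard error 0.19) had a 95% interval from -4.24 to -3.31 (limma adjusted p = 0.0065). In bulk libraries, fewer cells with the transcript and less transcript per cell cannot be told apart. The size of the difference held when any 1 library was left out. Without dKO 1 the log2 fold change was -3.77 and without dKO 2 it was -3.78. Without tKO 1 it was -4.05 and without tKO 2 it was -3.50. With 1 library in an arm, only the other pair supplies a spread. The fit then draws each gene's variance towards a trend over all genes in that pair. P-values of these fits therefore do not measure the spread of BAP1 itself.

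The BAP1 transcript was reduced but not absent. Relative to dKO, tKO 1 retained 8.75% (95% exact counting interval 7.42 to 10.3) and tKO 2 retained 5.95% (4.87 to 7.21). The level in tKO 2 was lower than in tKO 1 by more than counting error, with a log2 difference of -0.56 (interval -0.92 to -0.19). Such intervals cover counting error alone, since reads copied by PCR are not independent molecules. Reads on the opposite strand of the gene numbered 0 and 0 in dKO, and 1 and 3 in tKO. Gene counts do not show which part of the transcript the remaining reads came from. With a STOP cassette, exons before the insertion can still be transcribed. Whether the remaining reads came from such exons was not tested.

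Genes around BAP1 were compared library by library, because the genes near BAP1 were low in tKO 2. Among the 5 tested genes on each side of BAP1, the median log2 ratio to the dKO mean was 0.04 in tKO 1 (range -0.81 to 0.46) and -0.89 in tKO 2 (range -1.49 to -0.43). In tKO 2 all 10 neighbours were below dKO, in tKO 1 4 of 10 were. BAP1 itself was at -3.50 in tKO 1 and -4.05 in tKO 2. Relative to the median of its neighbours it stood at -3.54 in tKO 1 and at -3.15 in tKO 2 on the log2 scale. The reduction was present in tKO 1, where the median neighbour was not low. PHF7, which starts upstream of BAP1 on the opposite strand and encodes a PHD finger protein, had 104 and 133 counts in dKO against 124 and 77 in tKO, and its groups overlapped. WDR82, a subunit of SETD1 methyltransferase complexes, had 5577 and 5058 counts in dKO against 5020 and 2507 in tKO. None of the 10 neighbours was called, in a fit that called 0.0132% of all tested genes. What part of the BAP1 level in tKO 2 goes with the level of its neighbours was not tested.

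**Figure D1:**
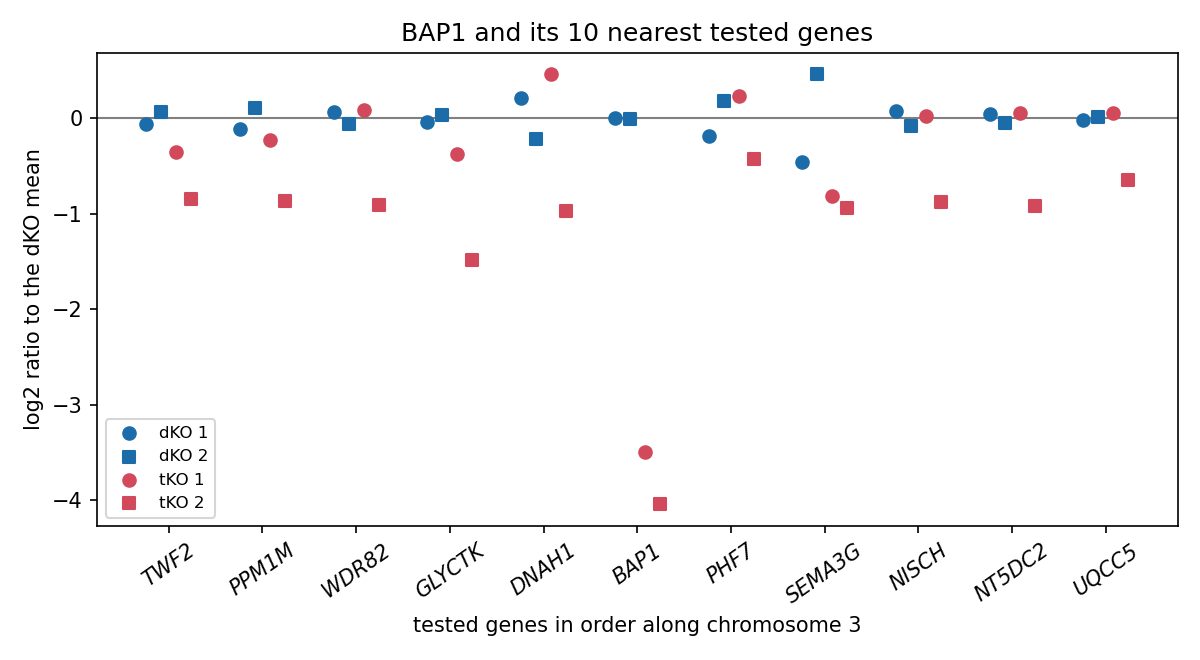
Log2 ratio to the dKO mean (y axis, log2-CPM) of BAP1 and the 5 tested genes on each side of it, in order along chromosome 3 (x axis); circles are replicate 1, squares replicate 2, blue dKO and red tKO. BAP1 lies at -3.50 and -4.05 in the tKO libraries, while its neighbours have a median of 0.04 in tKO 1 and -0.89 in tKO 2.

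The tested genes whose pattern over the 4 libraries was nearest to that of BAP1, by the root mean square distance of centred log2-CPM, were IRAK3, ZNF429, RIMBP2, ESRRB and LRRN2, at distances of 0.54, 0.55, 0.60, 0.62 and 0.67. All 5 had fewer counts than BAP1. LRRN2, a leucine-rich repeat membrane protein, had 104 and 103 counts in dKO against 23 and 9 in tKO. ESRRB, an orphan nuclear receptor, had 30 and 28 counts in dKO against 4 and 2 in tKO. IRAK3, an inhibitor of Toll-like receptor signalling, had 14 and 16 counts in dKO against 1 and 0 in tKO. None of the 5 was called, with limma adjusted p-values between 0.243 and 0.744. They were picked for this likeness, so their direction is a description.

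Of the 10 members 1, BAP1, was called (adjusted p below 0.05 and more than a 2-fold change), in a fit that called 0.0132% of all tested genes. None of the 9 partners was called. Their log2 fold changes lay between -0.01 and 0.36, 6 above and 3 below 0, with a median absolute value of 0.04 against 0.12 over all tested genes. The filter kept genes above 0.5 CPM, whereas the lowest partner value was 12.7 CPM (ASXL3 in tKO 2). The sets were not matched in level, so no greater stability of the partners is read from these medians. The 95% intervals of all 9 stayed within -0.46 and 0.61, so a 2-fold change in either direction was outside the interval of each partner. At an unadjusted p-value below 0.05 there were 2 members, BAP1 and FOXK1, against 3.55% of all tested genes.

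**Figure D2:**
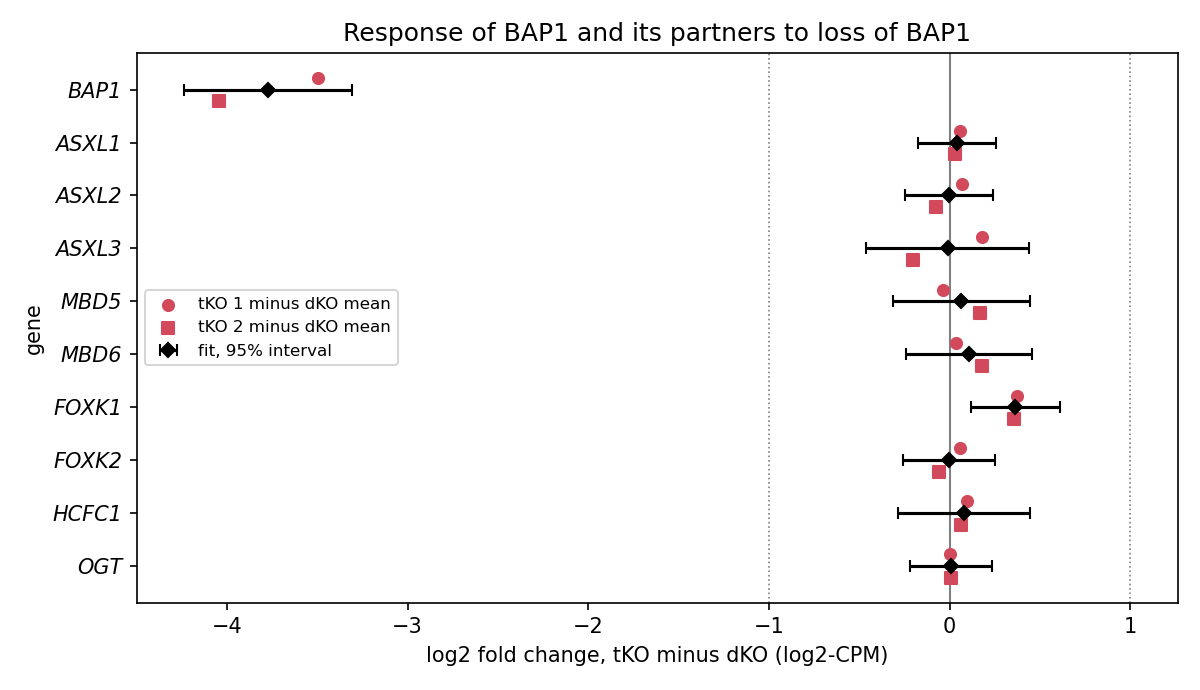
Log2 fold change of each member, tKO minus dKO on the log2-CPM scale (x axis), by gene (y axis); black diamonds and bars are the limma estimate with its 95% interval, red points the log2 ratio of each tKO library to the dKO mean, and dotted lines mark a 2-fold change. BAP1 sits at -3.77, and the 9 partners lie between -0.01 and 0.36.

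The ASXL proteins share with BAP1 the domain contact that activates the enzyme, and the paralogs were transcribed at unequal levels. ASXL1 (ENSG00000171456.12, chromosome 20, 30946133 to 31027122, plus strand) had 210.3 and 195.1 CPM in dKO, and 210.9 and 206.6 CPM in tKO. ASXL2 (ENSG00000143970.12, chromosome 2, 25956622 to 26101356, minus strand) had 114 and 108 CPM in dKO, and 116 and 105 CPM in tKO. ASXL3 (ENSG00000141431.5, chromosome 18, 31158183 to 31331159, plus strand) had 14.9 and 14.3 CPM in dKO, and 16.6 and 12.7 CPM in tKO. The ASXL3 counts were 274 and 259 in dKO and 269 and 205 in tKO, far above the floor of 3 counts, so a low level of ASXL3 transcript was present in all 4 libraries. The paper reports no ASXL3 expression in wild-type HAP1 cells or in cells lacking both ASXL1 and ASXL2. Those are other genotypes, and no wild-type library is compared here. The paper's text gives no level below which ASXL3 counts as not expressed, so the thresholds may differ as well.

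The tKO and dKO values of each ASXL gene overlapped. The log2 fold change was 0.04 for ASXL1 (95% interval -0.17 to 0.26), -0.00182 for ASXL2 (-0.24 to 0.24) and -0.01 for ASXL3 (-0.46 to 0.44). Their limma adjusted p-values were 0.996, 0.9988 and 0.9981. ASXL3 had both the widest interval and the lowest level of the ASXL genes. Its tKO libraries differed, tKO 2 being below tKO 1 by a log2 difference of -0.39 (counting interval -0.65 to -0.12). ASXL2 was also lower in tKO 2 than in tKO 1, by -0.14 (-0.24 to -0.05). For ASXL1 the dKO libraries differed, dKO 2 being lower by -0.11 (-0.17 to -0.04).

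Per kilobase of annotated exon (RPKM), ASXL1 made up between 60.7% and 63.0% of the summed ASXL level in the 4 libraries, ASXL2 between 33.1% and 34.7%, and ASXL3 between 3.88% and 4.78%. The order ASXL1, ASXL2, ASXL3 held in every library. The ratio of ASXL2 to ASXL1 was 0.558 and 0.570 in dKO, and 0.569 and 0.525 in tKO, and the groups overlapped (exact permutation test, two-sided, p = 0.667). The ratio of ASXL3 to ASXL1 was 0.0713 and 0.0734 in dKO, and 0.0788 and 0.0616 in tKO (exact permutation p = 1). With 2 libraries against 2 this test cannot give a p-value below 0.333. With the length of the longest transcript in place of all exons, the ASXL1 share was between 71.5% and 73.5%, and the ratio of ASXL2 to ASXL1 was 0.338 and 0.346 in dKO, and 0.345 and 0.319 in tKO.

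In dKO, BAP1 transcript per kilobase was about level with ASXL1 and ASXL2 together, at ratios of 0.988 and 1.05. In tKO the ratio was 0.0853 and 0.0609. The groups did not overlap, and the exact permutation p was 0.333, the smallest this design allows. The levels of ASXL1 and ASXL2 overlapped between genotypes, and that of BAP1 did not.

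The stretches before the transcription starts of the ASXL paralogs are shown because the 3 paralogs differ in level while each can serve BAP1 as its activating partner. Each is the 250 bases before the most upstream start given by RefSeq on GRCh38.p14, in the direction of transcription, with CpG dinucleotides in capitals. They lie at chr20:32358081-32358330 (plus strand) for ASXL1, chr2:25878488-25878737 (minus strand) for ASXL2 and chr18:33577969-33578218 (plus strand) for ASXL3. RefSeq promoters were matched for 8 of the 10 members, not for BAP1 and HCFC1.

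ASXL1: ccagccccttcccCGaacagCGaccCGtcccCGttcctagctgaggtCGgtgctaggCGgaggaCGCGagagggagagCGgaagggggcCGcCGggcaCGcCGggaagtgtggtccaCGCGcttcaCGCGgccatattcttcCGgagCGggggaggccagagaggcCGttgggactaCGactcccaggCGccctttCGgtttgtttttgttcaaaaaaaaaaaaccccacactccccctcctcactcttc

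ASXL2: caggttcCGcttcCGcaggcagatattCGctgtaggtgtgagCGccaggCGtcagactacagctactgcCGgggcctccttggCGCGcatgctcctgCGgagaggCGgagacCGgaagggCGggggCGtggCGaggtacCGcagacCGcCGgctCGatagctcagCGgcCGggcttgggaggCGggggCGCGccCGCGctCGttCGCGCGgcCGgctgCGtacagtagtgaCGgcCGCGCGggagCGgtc

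ASXL3: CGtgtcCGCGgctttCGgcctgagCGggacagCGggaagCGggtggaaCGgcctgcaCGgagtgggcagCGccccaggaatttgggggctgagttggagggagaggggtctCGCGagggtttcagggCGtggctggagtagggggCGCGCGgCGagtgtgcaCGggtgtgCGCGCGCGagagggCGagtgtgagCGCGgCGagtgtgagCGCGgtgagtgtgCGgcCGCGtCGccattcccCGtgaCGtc

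These windows held 23, 36 and 34 CpG dinucleotides for ASXL1, ASXL2 and ASXL3, against a median of 11 over 35116 promoter windows of the same length. At least as many were found in 25.8%, 4.85% and 6.84% of all windows. Over these 3 windows the CpG count did not follow the transcript level, since ASXL3, the least transcribed, had more than ASXL1. RefSeq gives 3 starts for ASXL1, 2 for ASXL2 and 1 for ASXL3, and which start these cells use was not tested. Among the other members, FOXK1 had 44 and FOXK2 43, and MBD5 had 17, the fewest of the 8.

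FOXK1 (ENSG00000164916.9, chromosome 7, 4721926 to 4811073, plus strand) was the partner with the largest difference. Its level was 92.9 and 83.0 CPM in dKO, and 114 and 112 CPM in tKO. Both tKO libraries were above both dKO libraries, and the tKO libraries were closer to each other than the dKO libraries. The fitted log2 fold change of 0.36 (standard error 0.10) had a 95% interval from 0.12 to 0.61, or 1.29-fold (interval 1.09 to 1.53). The unadjusted p-value was 0.0103, and the difference did not pass after adjustment (limma adjusted p = 0.996). FOXK1 was 1 of 10 members with both tKO libraries above both dKO libraries, against 15.8% of all tested genes. With each library left out in turn, the log2 fold change of FOXK1 ran from 0.28 without dKO 2 to 0.44 without dKO 1. In the opposite direction BAP1 was the sole member, against 15.9% of all tested genes.

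FOXK2 (ENSG00000141568.15, chromosome 17, 80477589 to 80602538, plus strand), the paralog of FOXK1, had 132 and 117 CPM in dKO, and 129 and 119 CPM in tKO. These values overlapped, with a log2 fold change of -0.00138 (95% interval -0.26 to 0.25, limma adjusted p = 0.9988). FOXK2 was the more abundant paralog per kilobase in all 4 libraries. The ratio of FOXK2 to FOXK1 was 1.87 and 1.85 in dKO, and 1.49 and 1.39 in tKO. It was lower in both tKO libraries, a difference of -0.37 on the log2 scale with the smallest exact permutation p possible, 0.333. The FOXK1 share of the pair accordingly lay at 34.9% and 35.1% in dKO, and at 40.1% and 41.8% in tKO. With the longest transcript as the length the ratio was 3.04 and 3.01 in dKO, and 2.43 and 2.27 in tKO, and the FOXK1 share was between 24.8% and 30.6%. On the opposite strand, WDR45B shares 53 exon bases with FOXK2, ENSG00000262147 shares 162 and ENSG00000261845 shares 1190. Counted without strand, where overlapping reads are left out, FOXK2 had 1916 counts in dKO 1 against 2420 with strand. Which overlap this difference came from was not tested.

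MBD6 was transcribed well above its paralog MBD5. MBD6 (ENSG00000166987.10, chromosome 12, 57914493 to 57923931, plus strand) had 57.5 and 45.5 CPM in dKO, and 52.3 and 58.0 CPM in tKO. MBD5 (ENSG00000204406.7, chromosome 2, 148778580 to 149274540, plus strand) had 21.2 and 18.7 CPM in dKO, and 19.4 and 22.4 CPM in tKO. Neither separated the genotypes, with log2 fold changes of 0.11 for MBD6 (95% interval -0.24 to 0.46) and 0.07 for MBD5 (-0.31 to 0.45), and limma adjusted p-values of 0.996 for each. Per kilobase, MBD5 made up between 7.76% and 8.58% of the pair, or between 12.6% and 13.9% with the longest transcript as the length. The ratio of MBD5 to MBD6 was 0.0842 and 0.0938 in dKO, and 0.0846 and 0.0881 in tKO (exact permutation p = 1). For MBD6 the replicates were apart by more than counting error in both genotypes, by -0.34 from dKO 1 to dKO 2 and by 0.15 from tKO 1 to tKO 2 on the log2 scale.

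**Figure D3:**
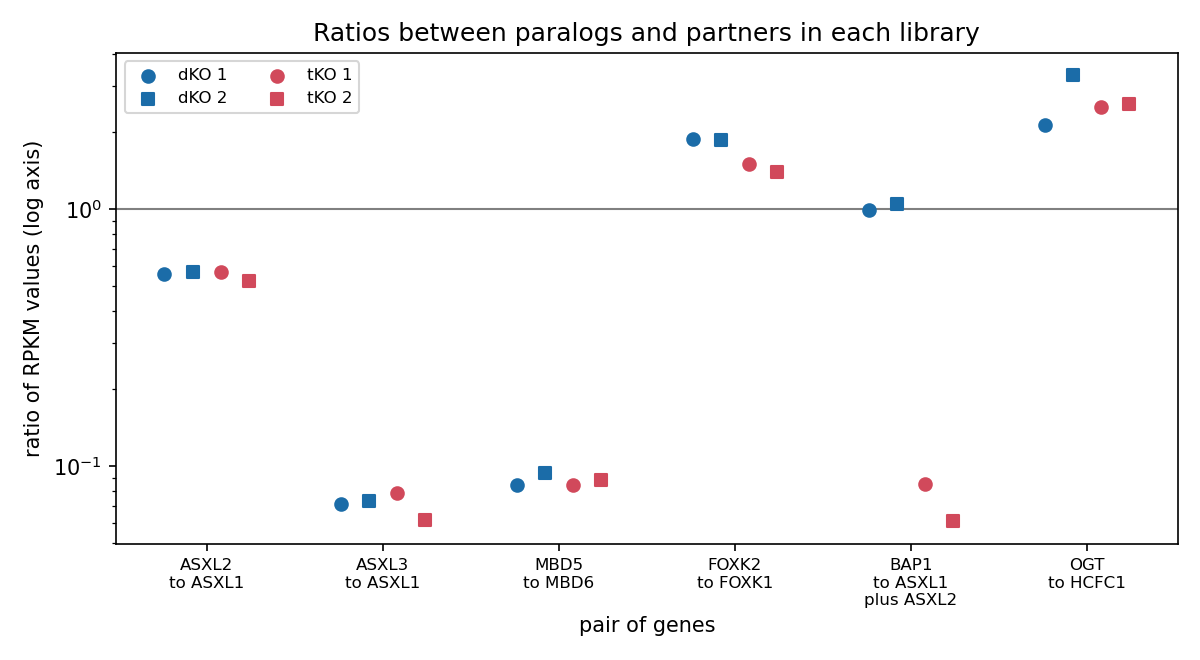
Ratio of RPKM values between pairs of members (y axis, log scale) in each library; circles are replicate 1, squares replicate 2, blue dKO and red tKO. The dKO and tKO points are apart for FOXK2 to FOXK1 (1.87 and 1.85 against 1.49 and 1.39) and for BAP1 to ASXL1 plus ASXL2, and overlap for the other 4 pairs.

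HCFC1 and OGT were the most abundant partners. OGT (ENSG00000147162.9, chromosome X, 70752937 to 70795742, plus strand) had 711 and 806 CPM in dKO, and 759 and 761 CPM in tKO. HCFC1 (ENSG00000172534.9, chromosome X, 153213008 to 153237269, minus strand) had 308 and 223 CPM in dKO, and 280.4 and 273.8 CPM in tKO. For both genes the tKO values fell between the dKO values, so no genotype difference larger than the replicate spread was seen. The log2 fold change was 0.00547 for OGT (95% interval -0.22 to 0.23, limma adjusted p = 0.9981) and 0.08 for HCFC1 (-0.28 to 0.44, limma adjusted p = 0.996).

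The dKO libraries differed at these genes in opposite directions. From dKO 1 to dKO 2, HCFC1 was lower by a log2 difference of -0.46 (counting interval -0.52 to -0.40) and OGT was higher by 0.18 (0.15 to 0.21). Between the tKO libraries the differences were -0.03 and 0.00230, within counting error for each. The ratio of OGT to HCFC1 was thus 2.13 in dKO 1 and 3.32 in dKO 2, with 2.49 and 2.55 in tKO between them (exact permutation p = 1). The HCFC1 transcript has a GC content of 61.5% and the OGT transcript of 42.2%. Over 5 classes of GC content, medians of the log2 difference between replicates were taken over the tested genes. From dKO 1 to dKO 2 they were 0.03 below 45% GC, -0.008 from 45% to 50%, -0.04 from 50% to 55% and from 55% to 60%, and 0.01 from 60%. From tKO 1 to tKO 2 they rose from class to class, from -0.08 below 45% to 0.13 from 60%. The part of GC content in the replicate differences of HCFC1, OGT and the other members was not tested. Replicates differed beyond counting error for 6 of the 10 members within dKO, against 32.8% of all tested genes, and for 5 within tKO, against 45.9%. The members' differences reached 0.46 and 0.56 on the log2 scale. Nothing particular to the members is read from these counts.

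**Figure D4:**
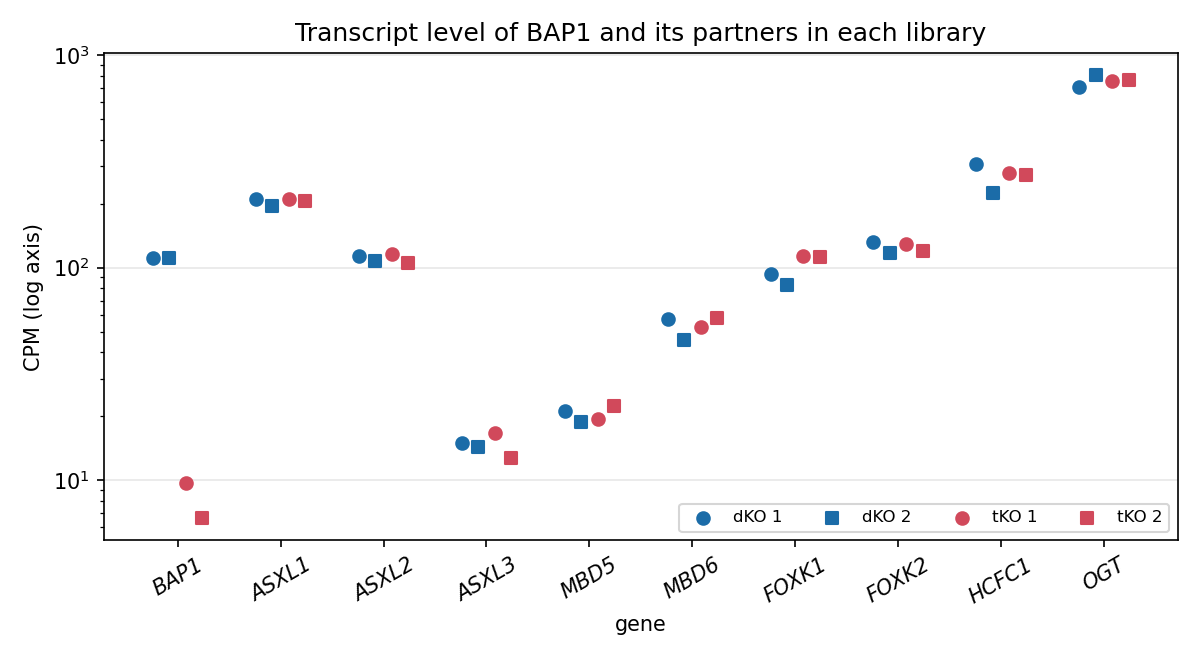
Level of each member in CPM (y axis, log scale) by gene (x axis) in each of the 4 libraries; circles are replicate 1, squares replicate 2, blue dKO and red tKO. BAP1 drops from 111 to 8.18 CPM on average, FOXK1 lies higher in both tKO libraries, and the remaining genes overlap between genotypes.

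Ordered by level per kilobase in dKO, the members ran from OGT (77.4 RPKM) through HCFC1 (29.5), BAP1 (23.6), ASXL1 (14.8), FOXK2 (12.5), MBD6 (9.25), ASXL2 (8.36), FOXK1 (6.71) and ASXL3 (1.07) to MBD5 (0.818). Ranges over the 4 libraries, or the 2 dKO libraries for BAP1, did not overlap between most neighbours in this order. The range of MBD6 (8.17 to 10.4 RPKM) overlapped that of ASXL2 (7.94 to 8.77), which overlapped that of FOXK1 (6.33 to 8.68). Within each of the 4 libraries MBD6 nevertheless ranked above both, while FOXK1 ranked above ASXL2 in tKO 2 and below it in the others. ASXL3 (0.931 to 1.22) and MBD5 (0.766 to 0.918) were separated by little. With the length of the longest transcript the dKO mean of BAP1 moved ahead of that of HCFC1, though HCFC1 stayed ahead within dKO 1. MBD5 moved ahead of ASXL3. In tKO, BAP1 fell to rank 8, between the group of ASXL2 and FOXK1 and the pair of ASXL3 and MBD5, at 2.06 and 1.40 RPKM.

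**Figure D5:**
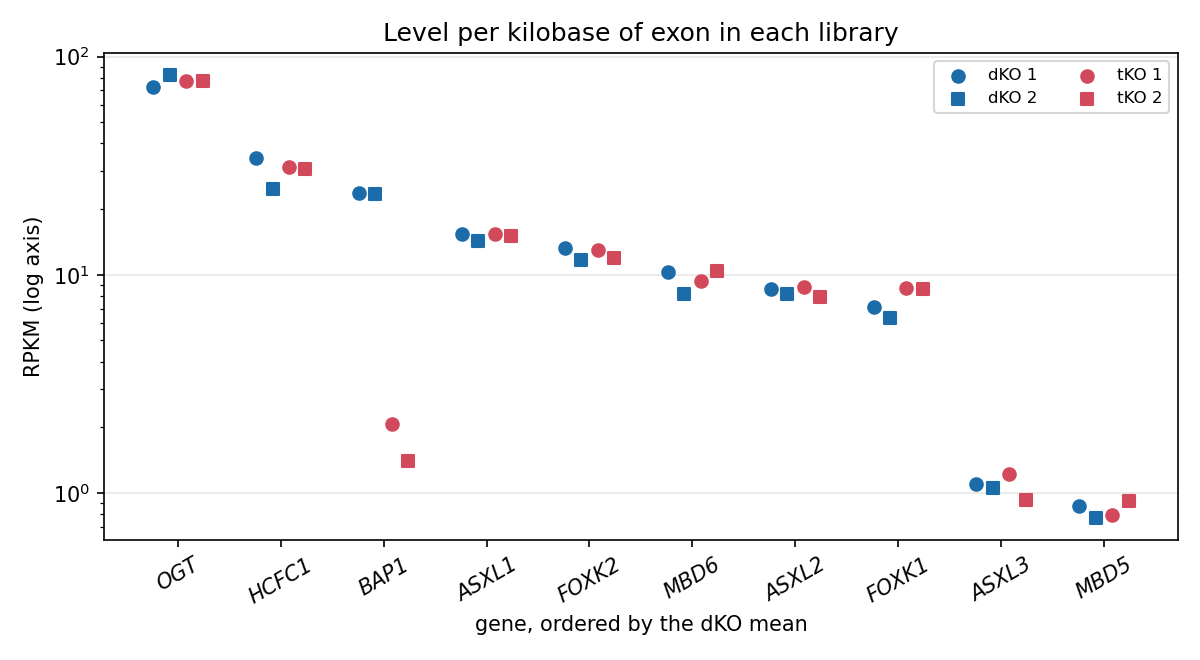
Level of each member in RPKM (CPM per kilobase of exon, y axis, log scale), with genes ordered by the dKO mean (x axis) and 1 point per library; circles are replicate 1, squares replicate 2, blue dKO and red tKO. OGT is highest at 77.4 in dKO and MBD5 lowest at 0.818, and BAP1 drops from rank 3 to rank 8 in tKO.

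Further proteins linked to BAP1 were examined in 3 lists. Of 9 binders and substrates, 8 were tested and 0 were called in limma, with 0 at an unadjusted p-value below 0.05 and log2 fold changes between -0.12 and 0.10. KDM1B, a histone H3 lysine demethylase found with PR-DUB, had 48.4 and 57.8 CPM in dKO, and 52.9 and 54.8 CPM in tKO. YY1, a zinc finger factor bound by BAP1 and HCFC1, had 190.5 and 182.7 CPM in dKO, and 201.6 and 189.6 CPM in tKO. Both overlapped between genotypes. The untested gene was PPARGC1A, a metabolic co-activator, with 1 and 3 counts in dKO against 19 and 0 in tKO.

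Of 11 paralogs and enzymes of the OGT cycle, all were tested and 0 were called in limma, with 0 at an unadjusted p-value below 0.05 and log2 fold changes between -0.14 and 0.11. OGA, which removes the sugar that OGT adds, had 227 and 229 CPM in dKO, and 233 and 224 CPM in tKO. The other ubiquitin hydrolases of the UCH family, to which BAP1 belongs, had log2 fold changes of 0.02 for UCHL1 (95% interval -0.18 to 0.23), -0.14 for UCHL3 (-0.56 to 0.28) and -0.09 for UCHL5 (-0.39 to 0.20). None of the 3 passed the test, and a rise of 2-fold lay outside each interval. HCFC2, the paralog of HCFC1, had a log2 fold change of 0.00705 (-0.42 to 0.43).

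Of 10 factors linked to HCFC1, all were tested and 0 were called in limma, with 0 at an unadjusted p-value below 0.05 and log2 fold changes between -0.05 and 0.22. WDR5, a subunit shared by MLL and SETD1 complexes, had the highest, with 128 and 102 CPM in dKO, and 131 and 135 CPM in tKO (limma adjusted p = 0.996). SETD1A, a histone H3 lysine 4 methyltransferase, had 69.3 and 50.8 CPM in dKO, and 64.4 and 70.6 CPM in tKO, with dKO 2 the lowest library as for HCFC1. Over the 3 lists, 3 of 29 tested genes (UBE2O, RBBP5 and WDR5) lay higher in both tKO libraries and 1 (UCHL3) lower, against 15.8% and 15.9% of all tested genes. In limma, 0.0132% of all tested genes were called and 3.55% had an unadjusted p-value below 0.05. Nothing particular to the lists is read from their counts. The median absolute log2 fold change was 0.06, 0.02 and 0.08 in the 3 lists.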

How the data were processed

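The deposited files hold raw counts of reads for each gene. Per the study's methods, the authors trimmed reads with cutadapt (1.12) through Trim Galore (0.4.4), removed ribosomal reads with bowtie (1.2), and mapped to GRCh37 and counted uniquely mapped reads over GENCODE exons with STAR (2.5.2b). Reads shared by near-identical copies were therefore not counted. The column of reads antisense to the gene, the orientation of the kit, was used.

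The filter kept genes whose CPM exceeded 0.5 in 2 or more libraries. Counts were converted to log2-CPM (prior count of 2, TMM sizes, edgeR 4.0.16), and limma (3.58.1, in R 4.3.3) fitted the genotype, moderating variances by empirical Bayes towards a trend on expression. Benjamini-Hochberg adjustment covered all 15136 tested genes. Calling a gene required a log2 fold change beyond 1 in size and an adjusted p-value under 0.05. Symbols, positions and exon lengths came from a later GENCODE release on GRCh37, which matched 96.0% of gene rows. Its exons can differ from those counted. The length used was the union of exons. Ratios per library were compared by exact permutation tests.

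Named were the members, 3 lists of linked genes, the 5 tested genes on each side of BAP1, the 5 nearest to its pattern, and cell markers. Members and lists were chosen with earlier results of these data known. SERPINB9, which the fit also called, is not described, being no member. Replicate numbers run from 1 to 2 in each group, and same-numbered libraries hardly deviated together (correlation 0.0581 over genes). The fit was tested on simulated data. DESeq2 (1.42.0) and the edgeR quasi-likelihood test were among the alternatives.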

Additional observations from a re-analysis of the deposited data

How the results depend on the processing

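BAP1 was below dKO under all 15 alternatives (leaving out each library in turn gave values between -4.05 and -3.50). It was not called in limma without a trend (log2 fold change -3.77, adjusted p = 0.384) or with no filter (-3.78, adjusted p = 0.734). Nor was it called without dKO 1 or dKO 2, where the spread comes only from the tKO pair, through the trend over all genes. Under the other alternatives BAP1 was called. No partner was called under any alternative. FOXK1 stayed above dKO in all 15, between 0.28 and 0.44, whereas each other partner changed sign in 1 to 4 of them. Adding a replicate block raised the calls over all tested genes from 2 to 13, and the block changed no call among the members. The number was 25 with DESeq2, 1 with edgeR quasi-likelihood, limma without a trend, CPM above 5 and unstranded counts, 0 with no filter, and from 0 to 492 across fits without 1 library. The 3 lists gave 0 calls under every alternative. With the longest transcript as length, BAP1 ranked 2, HCFC1 3, MBD5 9 and ASXL3 10 by the dKO mean. The cause of these changes was not tested, apart from the rank changes, which follow from the length itself. With 2 libraries a genotype, changes smaller than the intervals given could not be seen.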
